A study of Mus musculus with 4 samples.

Results

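The genes described are 10 enzymes of glutathione synthesis, recycling and antioxidant defence in the fetal mouse pancreas: Gclc, Gclm, Gss, Gsr, Ggt1, Gpx1, Gpx4, Hmox1, Nqo1 and Txnrd1. They were chosen by name, and a probe of the array was assigned to one of them if its RefSeq transcript belongs to that gene. All 10 were on the array, with 12 probes among them, and all 10 passed the filter on dim probes. They are 10 of 17305 genes that could be named on the array and 10 of 15524 genes tested.

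Each of 4 two-colour Agilent arrays compared whole pancreas of 1 knockout extract with 1 wild-type extract at E18.5, shortly before birth. The series title gives the mutated gene as Cyp11a1, which encodes the mitochondrial enzyme that turns cholesterol into pregnenolone and so starts steroid hormone synthesis. Both genotypes were on the C57BL/6JNarl strain, the labels name no treatment, and neither the allele nor how the deletion was made is given in the sources used here. Knockout cDNA carried the red dye and wild-type cDNA the green dye on every array, so a gene-specific dye effect and genotype cannot be told apart. The labels do not say how many embryos an extract holds or which were litter mates. Their extract codes all differ but share letters (BB for the knockout of arrays 1 and 2, BF for the wild type of arrays 1 and 3 and the knockout of array 3), with no stated meaning. The titles number the samples as replicates 1 to 4, but all 4 descriptions read biological replicate 1 of 4. The labels thus conflict, and the arrays may not be independent. The p-values therefore measure the spread between these 4 arrays, which may be partly technical. Over all genes tested, log2 ratios correlated at 0.60 between arrays 1 and 3 and at 0.59 between arrays 2 and 4. Other pairs gave 0.31 to 0.43, and the reason was not tested.

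Glutathione is a tripeptide of glutamate, cysteine and glycine that serves as the main thiol of the cell. Its synthesis is limited by the supply of cysteine and by glutamate-cysteine ligase, and it is spent by peroxidases and transferases, recycled by a reductase and taken apart outside the cell by gamma-glutamyltransferase. Many of these enzymes, with haem oxygenase and the quinone and thioredoxin reductases, are induced by the transcription factor NRF2 (gene Nfe2l2) through antioxidant response elements. The pancreas is known for high activity of gamma-glutamyltransferase, which lies on the apical membrane of acinar and duct cells.

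Ggt1 was lower and Gpx4 higher in knockout pancreas, and the other 8 enzymes did not pass the test. In bulk tissue, fewer cells of a type and less RNA per cell cannot be told apart. Thus 1 of 10 enzymes rose and 1 of 10 fell (limma, adjusted p under 0.05 over all genes tested). Over all 15524 genes tested, 14.6% passed, 9.45% as higher and 5.11% as lower. The median log2 ratio of the 10 enzymes was 0.012, and that of all genes was 0.013. The enzymes as a group were therefore close to the background in both the share of calls and the median.

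**Figure D1:**
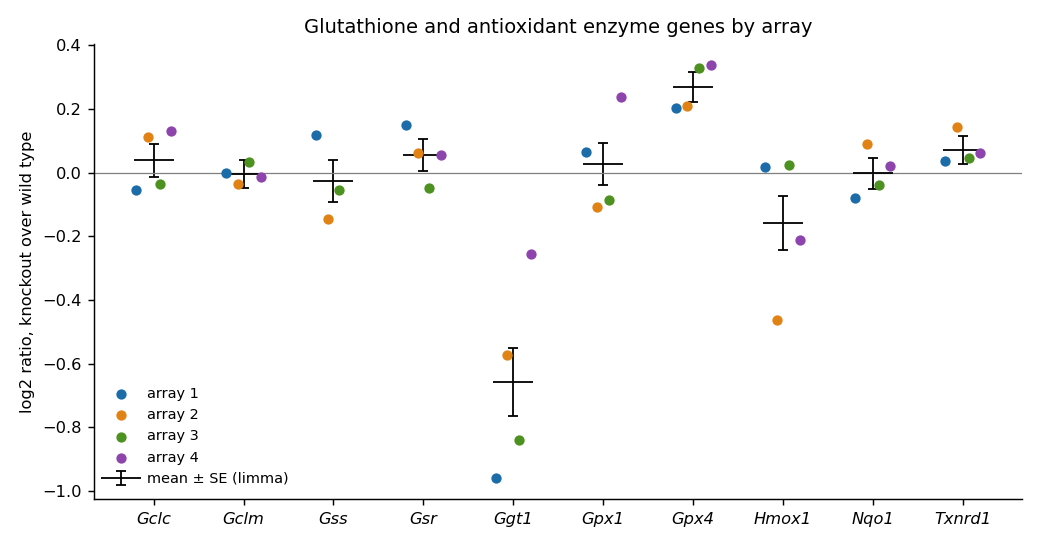
Log2 ratio of knockout over wild type for each of the 10 enzymes (horizontal axis), with 1 coloured point per array and the limma mean ± SE in black. The 4 points of Ggt1 lie between -0.96 and -0.26 and those of Gpx4 between 0.20 and 0.34. The points of Gclc, Gclm, Gss, Gsr, Nqo1 and Txnrd1 stay within 0.15 of 0 on every array measured.

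Stretches of RefSeq promoter sequence (assembly GRCm38.p6) are shown for the enzymes whose promoter window held the core of the antioxidant response element, TGACNNNGC, searched on both strands. A window runs from 250 bases before to 50 after a start site, and the table holds 15 windows for 7 of the 10 enzymes (Gclm, Gss, Ggt1, Gpx1, Gpx4, Nqo1 and Txnrd1). The core was found in 5 of the 15 windows, against 12.4% of all 32851 windows. These 5 belong to Gclm, Txnrd1 and Ggt1. Capitals mark the core, which on the minus strand reads GCNNNGTCA.
Gclm, chr3:122245397-122245457, plus strand: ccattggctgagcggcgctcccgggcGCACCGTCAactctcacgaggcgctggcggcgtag
Txnrd1, chr10:82859088-82859148, plus strand: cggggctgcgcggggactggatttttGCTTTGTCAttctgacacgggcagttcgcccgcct
Ggt1, chr10:75568600-75568660, plus strand: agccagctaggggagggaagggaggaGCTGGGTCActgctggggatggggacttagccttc
Ggt1, chr10:75571451-75571511, plus strand: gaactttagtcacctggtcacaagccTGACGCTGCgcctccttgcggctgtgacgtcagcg
Ggt1 has 4 windows in the table, of which 3 held the core. The third match lies 42 to 50 bases after a start site and is not shown. Which of the start sites the pancreas used was not measured. A match of these letters describes the sequence and is no evidence of a bound factor.

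Synthesis of glutathione was examined first. Gclc, the catalytic subunit of glutamate-cysteine ligase, gave log2 ratios of -0.053, 0.11, -0.036 and 0.13 on arrays 1 to 4. Knockout was thus lower on 2 arrays and higher on 2, and the mean of 0.038 ± 0.052 (SE, n = 4 arrays) did not pass (limma adjusted p = 0.660). Its 95% interval of -0.082 to 0.16, unadjusted like all intervals given here, bounds the difference rather than showing that the genotypes were alike. Gclm, the modifier subunit that lowers the enzyme's sensitivity to glutathione, was the most even of the 10 between arrays, with ratios of -0.00052, -0.036, 0.032 and -0.013. Its mean was -0.0047 ± 0.043 (SE, n = 4; limma adjusted p = 0.956; interval -0.10 to 0.095).

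Gss, glutathione synthetase, which adds glycine in the second step, was fitted on 3 arrays because its spot on array 4 was marked as non-uniform and left out. The ratios on arrays 1 to 3 were 0.12, -0.14 and -0.054. They scattered around 0, and the mean of -0.027 ± 0.067 (SE, n = 3 arrays) did not pass (limma adjusted p = 0.825; interval -0.19 to 0.13).

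Recycling of oxidised glutathione depends on Gsr, glutathione reductase, the only one of the 10 genes with more than 1 probe. Its brightest probe (A_51_P359625) gave 0.15, 0.062, -0.047 and 0.055, with a mean of 0.055 ± 0.049 (SE, n = 4; limma adjusted p = 0.486). With each probe fitted separately, probe A_52_P346738 was above 0 on all 4 arrays at 0.19, 0.28, 0.099 and 0.10, with a mean of 0.17 ± 0.051. That value had an unadjusted p of 0.011 in limma but did not pass over all probes (adjusted p = 0.076). Probe A_52_P91604 stayed near 0 at 0.018 ± 0.045 (limma adjusted p = 0.832). The 3 probes of Gsr thus differed in size but none passed.

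Ggt1 was the enzyme with the largest difference. It encodes gamma-glutamyltransferase, which splits extracellular glutathione and so returns its cysteine to the cell. The normalised log2 signal in wild-type extracts was 10.97, 10.82, 11.24 and 11.24 on arrays 1 to 4, and in knockout extracts 10.01, 10.25, 10.41 and 10.98. Within each array the knockout was lower, and across arrays the groups overlapped only through the knockout extract of array 4, which exceeded the wild-type extracts of arrays 1 and 2. The log2 ratios were -0.96, -0.57, -0.84 and -0.26. Ggt1 fell by 0.66 ± 0.11 on the log2 scale (SE, n = 4 arrays), so the wild-type signal was 1.58 times the knockout signal (limma adjusted p = 0.0091; interval -0.90 to -0.41).

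The difference in Ggt1 was largest on array 1 and smallest on array 4. Without replicate 4 the mean was -0.79 and without replicate 1 it was -0.56, and the gene passed without any 1 array (limma adjusted p = 0.0078 to 0.035). With median centring of each array in place of loess it was at -0.26 (limma adjusted p = 0.040). With the single channels compared and the array ignored as a block, the mean was the same but did not pass (adjusted p = 0.095). Before normalisation the Ggt1 spot read 1553.5 to 2488 units in red (knockout) and 1259 to 1845 in green (wild type), while the median spot read 304 to 467 in red and 163 to 224 in green. The lower value of Ggt1 in knockout is therefore relative to the other probes of the array.

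**Figure D2:**
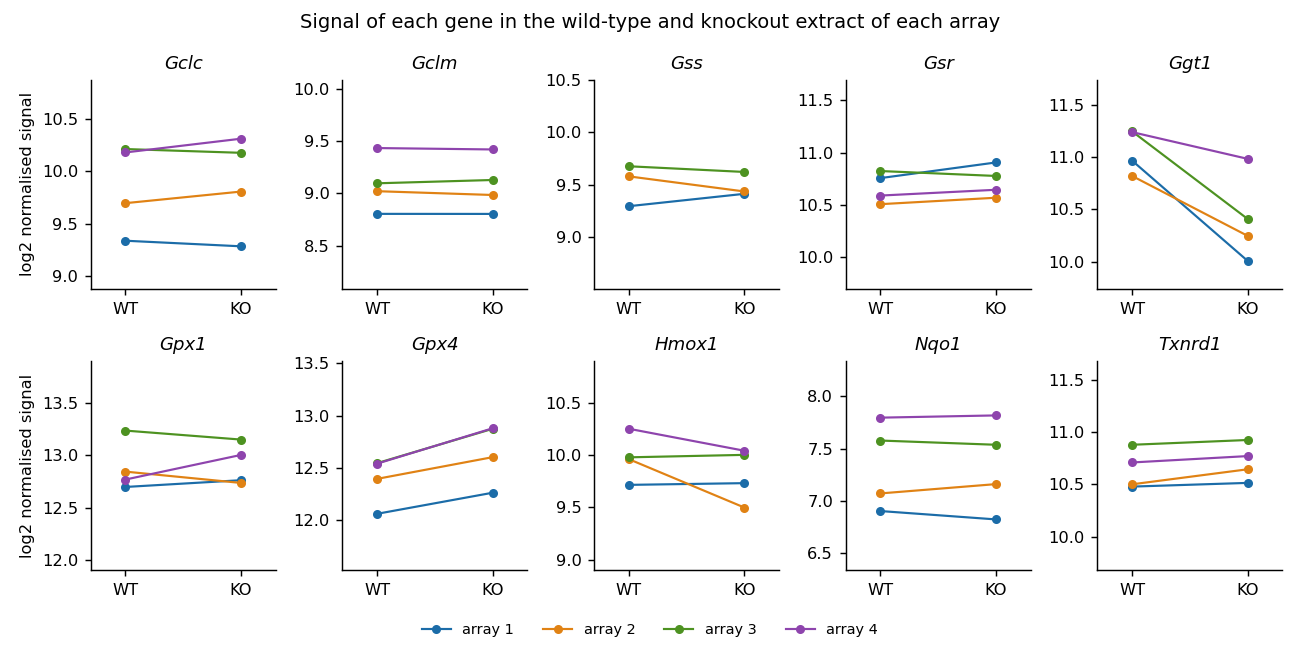
Normalised log2 signal of each enzyme in the wild-type (WT) and knockout (KO) extract, with a line joining the 2 extracts of an array and every panel spanning 2 log2 units. All 4 lines of Ggt1 slope down, from 10.82 to 11.24 in wild type to 10.01 to 10.98 in knockout, and all 4 lines of Gpx4 slope up. Gss has 3 lines, since its spot on array 4 was left out.

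The genes closest to Ggt1 over the 4 arrays, by Euclidean distance between log2 ratios among 14914 other genes with values on all arrays, were Cela1, Pnliprp2 and Eml5. Cela1, an elastase of acinar cells, gave -1.10, -0.72, -0.70 and -0.23 (distance 0.25). Pnliprp2, a lipase of acinar cells, gave -1.12, -0.60, -1.03 and -0.19 (distance 0.26). Eml5, a microtubule-binding protein, gave -0.83, -0.51, -0.89 and -0.49 (distance 0.28). The acinar markers as a list were not lower. Of 12 tested, 4 were higher and 1 was lower (33.3% and 8.33%, against 9.45% and 5.11% of all genes). Their median ratio was -0.10, 0.35, 0.28 and 0.38 on arrays 1 to 4. Their summed signal was 745007 to 1097651 in knockout and 723776 to 762672 in wild type, and the ratio of the sums was -0.034, 0.40, 0.36 and 0.53 on arrays 1 to 4. The sum is of unlogged signal, so its brightest genes weigh most. It was higher on arrays 2 to 4 and slightly lower on array 1, and Ggt1 was lower on all 4. The arrays nevertheless ranked in the same order for Ggt1, the acinar median and the acinar sum. Array 1 was lowest, followed by arrays 3, 2 and 4. Of 8 duct markers tested, 0 passed in limma after adjustment and 1 was higher at an unadjusted p under 0.05, with a median of 0.082. The part of acinar or duct cells in the value of Ggt1 was not tested.

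Peroxidases came next. Gpx4, the selenoenzyme that reduces lipid hydroperoxides within membranes and so restrains ferroptosis, gave log2 ratios of 0.20, 0.21, 0.33 and 0.34. Each knockout extract exceeded the wild-type extract of its array, but the levels overlapped across arrays (12.26 to 12.88 in knockout, 12.06 to 12.55 in wild type). Gpx4 was higher by 0.27 ± 0.048 (SE, n = 4), or 1.21-fold (limma adjusted p = 0.013; interval 0.16 to 0.38). It did not pass without replicate 3 (0.25, limma adjusted p = 0.054) or without replicate 4 (0.25, adjusted p = 0.061), nor in single channels with no array block (adjusted p = 0.265). With median centring it was at 0.75. Gpx4 was brighter than 89.9% of genes, just below the cut for the brightest 1553 genes, of which 12.7% were higher and 9.27% lower.

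Gpx1, the abundant cytosolic glutathione peroxidase and also a selenoenzyme, gave 0.065, -0.11, -0.086 and 0.24. It was higher in knockout on arrays 1 and 4 and lower on arrays 2 and 3, and the mean of 0.026 ± 0.065 (SE, n = 4) did not pass (limma adjusted p = 0.820; interval -0.12 to 0.18). Of 23 tested genes of selenoprotein synthesis and other selenoproteins, 2 were higher and 2 lower (8.70% each, near the 9.45% and 5.11% of all genes; median -0.0020), and 1 to 3 were higher and 0 to 2 lower with 1 array left out. Selenoh, a nuclear selenoprotein, rose by 0.35 ± 0.044 (n = 4; limma adjusted p = 0.0040). Eefsec, the elongation factor that delivers selenocysteine, was higher at 0.28 ± 0.049 (limma adjusted p = 0.012, but 0.055 without replicate 4). Scly, which recovers selenium from selenocysteine, was lower at -0.46 ± 0.10 (limma adjusted p = 0.028, but 0.070 and 0.083 without replicate 1 or 4). Selenoi, a phospholipid-synthesising selenoprotein, had a log2 ratio of -0.21 ± 0.056 (limma adjusted p = 0.047, but 0.13 to 0.17 when array 1, 3 or 4 was dropped). Fitted separately, its probes gave -0.16, -0.21 and -0.17, and none passed (limma adjusted p = 0.055 to 0.089). With median centring Scly was at -0.023 and Selenoi at -0.0020.

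Hmox1, haem oxygenase, which opens the haem ring and is strongly induced by oxidative stress, differed between arrays. Its log2 ratios were 0.016, -0.46, 0.024 and -0.21, so knockout was lower on arrays 2 and 4 and level with wild type on arrays 1 and 3. The mean of -0.16 ± 0.083 (SE, n = 4) did not pass (limma adjusted p = 0.242; interval -0.35 to 0.035). Macrophage markers, cells in which Hmox1 is abundant, had a median ratio of 0.061, -0.37, 0.050 and -0.064 on the same arrays. Of 11 tested macrophage genes, C1qa was higher and Cd163, the haemoglobin scavenger receptor, was lower (9.09% each, against 9.45% and 5.11% of all genes). The summed signal of the 11 was 10358 to 17090 in knockout and 10345 to 15016 in wild type. Array 2 was thus the lowest for both Hmox1 and these markers. Their part in the value of Hmox1 was not tested.

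Among the other genes of haem breakdown and iron handling, 1 was higher and 3 lower of 19 tested (median -0.015). These are 5.26% and 15.8%, against 9.45% and 5.11% of all genes. With 1 array left out, 0 or 1 was higher and 2 or 3 lower. Hp, haptoglobin, fell by 0.56 ± 0.11 (limma adjusted p = 0.015), with -0.31, -0.98, -0.35 and -0.60 on arrays 1 to 4. Slc40a1, the iron exporter ferroportin, was lower at -0.36 ± 0.083 (limma adjusted p = 0.029, but 0.10 and 0.064 without replicate 1 or 2; -0.066 with median centring). Hp and Slc40a1 were, like Hmox1, lowest on array 2. Ncoa4, the receptor for ferritin turnover, was at -0.27 ± 0.053 (limma adjusted p = 0.071 without replicate 3) but at 0.19 with median centring. Its other probes gave -0.35 each with loess and passed when fitted separately (limma adjusted p = 0.0050 and 0.0074). Pgrmc1, a haem-binding membrane protein, was at 0.18 ± 0.048 (limma adjusted p = 0.045, but 0.098 to 0.12 without any 1 array).

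The 2 remaining enzymes are reductases that NRF2 induces. Nqo1, the quinone reductase, was the dimmest of the 10, with an unnormalised signal of 126 to 245.5 in knockout against a local background of 43 to 46.5, yet every one of its spots, red and green, stood well above background. Its ratios were -0.080, 0.089, -0.040 and 0.021, and the mean of -0.0025 ± 0.048 (SE, n = 4) did not pass (limma adjusted p = 0.979; interval -0.11 to 0.11). Txnrd1, the cytosolic thioredoxin reductase, was above 0 on all 4 arrays at 0.035, 0.14, 0.046 and 0.061. The mean of 0.071 ± 0.045 (SE, n = 4) did not pass (limma adjusted p = 0.318; interval -0.032 to 0.18), and 39.1% of genes had 1 sign on all 4 arrays.

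NRF2 itself and its regulators were examined next. Nfe2l2 gave 0.15, 0.22, 0.091 and 0.090, a mean of 0.14 ± 0.046 that did not pass with loess (limma adjusted p = 0.090) but did with median centring (0.55). Minus the median of all genes under that centring, 0.26, it was at 0.30 and passed (limma adjusted p = 0.0013), beside 25.9% of all genes higher. Its other probe gave 0.13 with loess and did not pass (limma adjusted p = 0.277). Keap1, the adaptor that sends NRF2 for degradation, was higher at 0.20 ± 0.044 (limma adjusted p = 0.023, but 0.077 to 0.098 without replicate 1, 3 or 4). Bach1, which represses Hmox1, was at -0.081 ± 0.067 (limma adjusted p = 0.452). Of 17 regulators tested, 1 was higher and 2 lower with loess (5.88% and 11.8%, against 9.45% and 5.11% of all genes). With 1 array left out, 0 or 1 was higher and 1 to 3 lower. The 2 lower were the small Maf partner Mafk at -0.27 ± 0.046 (limma adjusted p = 0.053 without replicate 4) and Maf at -0.36 ± 0.068 (limma adjusted p = 0.064 without replicate 1). The other probe of Maf gave -0.17 and did not pass. With median centring Mafk and Maf were at -0.050 and 0.012 and did not pass. Under that setting 11 of the 17 regulators were higher, a share close to the 61.0% of all genes.

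Of 32 other NRF2 targets tested, 8 were higher and 3 lower (25.0% and 9.38%, against 9.45% and 5.11% of all genes), and their median was 0.076. Leaving out 1 array gave 4 to 6 higher and 0 to 2 lower. Gstm1, Mgst1, Tkt and Akr1b3, an aldose reductase (0.30 ± 0.045, limma adjusted p = 0.0071), rose, whereas Slc7a11, Srxn1 and Ugdh (-0.25) were lower. Lists overlap: Gstm1 and Mgst1 also count among the transferases and Tkt under NADPH supply. Prdx1 and Srxn1 also count among thioredoxin genes and Slc7a11 under cysteine supply, so the list counts are not independent. Srxn1, sulfiredoxin, was called on its brightest of 3 probes (-0.16), which did not pass when probes were fitted separately (limma adjusted p = 0.054), and its other probes gave -0.017 and -0.051. The 4 NRF2 targets among the 10 enzymes that the field uses most, Gclc, Gclm, Hmox1 and Nqo1, did not pass.

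**Figure D3:**
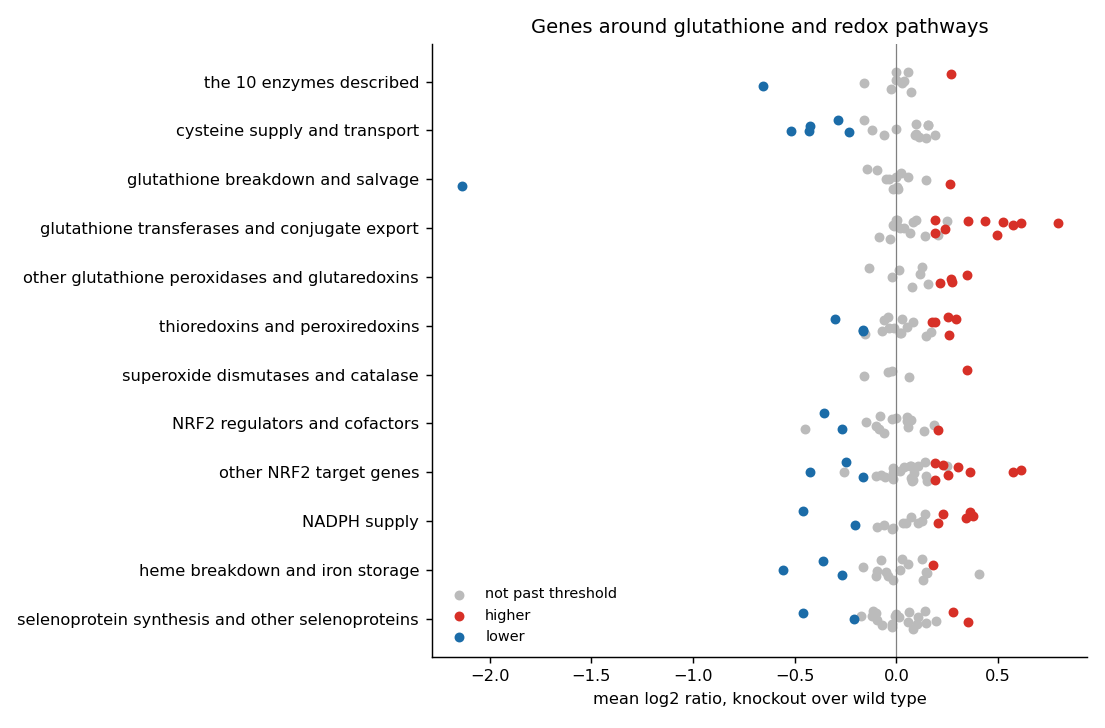
Mean log2 ratio of knockout over wild type (horizontal axis) for every tested gene of the 10 enzymes and of 11 lists of neighbouring pathways, red where higher and blue where lower at a limma adjusted p under 0.05. Red points gather in the row of glutathione transferases (10 higher, 0 lower) and blue points in the row of cysteine supply (0 higher, 5 lower), with Chac1 alone at -2.14.

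Cysteine supply, the step before Gclc, gave calls that depended on the centring. Of 17 tested genes of cysteine uptake and synthesis, 5 were lower and 0 higher (29.4% lower, against 5.11% of all genes), although the list median was -0.0043. At an unadjusted limma p under 0.05, 7 were lower and 3 higher. With 1 array left out, 2 to 4 were lower and at most 1 was higher. Under median centring 4 fell and 9 rose (15.8% and 61.0% of all genes did), and the median lay 0.091 below that of all genes. After subtraction of the median of all genes, 6 were higher and 6 lower, beside 25.9% of all genes higher and 31.6% lower. Cth, which makes cysteine from cystathionine, fell by 0.52 ± 0.098 (limma adjusted p = 0.015), with -0.89, -0.21, -0.46 and -0.51 on arrays 1 to 4. Slc1a4, a transporter of alanine, serine and cysteine, fell by 0.43 ± 0.064 (limma adjusted p = 0.0070), and its other probe gave the same -0.43.

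Slc7a11, the cystine importer xCT, gave -0.14, -0.79, -0.40 and -0.38. It was lower on all 4 arrays, with a mean of -0.42 ± 0.094 (limma adjusted p = 0.025), but did not pass without replicate 3 or 4 (adjusted p = 0.063 and 0.065) or with Feature Extraction's processed signals (-0.65, adjusted p = 0.075). Its other probe gave -0.24 and did not pass. Mat2a, which makes S-adenosylmethionine, was at -0.23 ± 0.055 (limma adjusted p = 0.032, but 0.070 to 0.12 without replicate 2, 3 or 4) and at 0.16 with median centring.

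Chac1, which degrades glutathione inside the cell, was the gene of these lists with the largest difference. It gave -1.85, -2.52, -1.87 and -2.31 on arrays 1 to 4 and fell by 2.14 ± 0.11 (limma adjusted p = 9.2e-04). Its SD over arrays was 0.34, and that of Ggt1, which acts on the outside, was 0.31. Of the other 12 genes of glutathione breakdown tested, Anpep, the aminopeptidase that cleaves the product of Ggt1, was higher at 0.26 ± 0.048 (limma adjusted p = 0.013, but 0.050 and 0.057 without replicate 1 or 3). The list held 1 higher and 1 lower gene of 13 (7.69% each, against 9.45% and 5.11% of all genes), with a median of -0.0013.

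Chac1, Slc7a11 and Slc1a4 are known targets of ATF4, a transcription factor of the amino acid response, so their promoter windows were searched for its core, TGATGNAA. This motif was chosen after their values were seen. It was found in a window of each, which is no independent evidence, since they were searched as known targets. Of the 203 windows of all genes of these lists, 5 held it (2.46%, against 3.97% of all 32851 windows). The others belong to Me3 and Sephs1, which did not pass the test, and none of the 15 windows of the 10 enzymes held it. Capitals mark the core, which on the minus strand reads TTNCATCA. Slc7a11 holds it once on each strand.
Slc7a11, chr3:50443627-50443705, minus strand: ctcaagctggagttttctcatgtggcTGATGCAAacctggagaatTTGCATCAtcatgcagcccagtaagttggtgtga
Chac1, chr2:119351023-119351082, plus strand: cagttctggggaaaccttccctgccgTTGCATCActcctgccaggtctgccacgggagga

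Glutathione transferases, which consume glutathione to tag reactive compounds, were higher in part. Of 25 tested genes of this group and of conjugate export, 10 rose and 0 fell (40.0% higher, against 9.45% of all genes). The median was 0.14, and at an unadjusted limma p under 0.05 there were 13 higher and 0 lower. With 1 array left out, 7 or 8 rose and 0 fell. Under median centring 20 rose and 2 fell (61.0% and 15.8% of all genes did), and the median lay 0.28 above that of all genes. Mgst2, a microsomal transferase, rose by 0.79 ± 0.078 (limma adjusted p = 0.0021) with 0.92, 0.96, 0.78 and 0.50 on arrays 1 to 4. Gstm1 rose by 0.61 ± 0.058 on its brighter probe and by 0.66 on the other (0.42, 0.71, 0.64 and 0.68 on the brighter). Mgst1 rose by 0.57 ± 0.053 and Gstm5 by 0.52 ± 0.056, and each of these was higher on every array. The Gstm genes are close paralogs, so a probe of one can also bind transcripts of another.

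The list of other peroxidases, glutaredoxins and glutathione-dependent enzymes held 4 higher and 0 lower of 11 tested (36.4% higher, against 9.45% of all genes). The median was 0.12, and at an unadjusted limma p under 0.05 there were 6 higher and 0 lower. With 1 array left out, 2 or 3 were higher. The 4 higher with all arrays were 2 peroxidases, an esterase and a glyoxalase, and no glutaredoxin passed. Gpx8 and Gpx7, glutathione peroxidases of the endoplasmic reticulum, were higher at 0.35 ± 0.058 (limma adjusted p = 0.0099) and 0.27 ± 0.056 (limma adjusted p = 0.021, but 0.052 to 0.086 without replicate 1, 3 or 4). Esd, an esterase that acts on formyl-glutathione, rose by 0.27 ± 0.047 (limma adjusted p = 0.011). Of its other probes, fitted separately, one gave 0.37 and passed and the other gave 0.16 and did not. Glo1, glyoxalase 1, was at 0.21 ± 0.051 (limma adjusted p = 0.032, but 0.066 to 0.11 without any 1 array), and its other probe gave 0.12 and did not pass.

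Thioredoxin and peroxiredoxin genes, the system that Txnrd1 feeds, went both ways. Of 21 tested, 5 were higher and 3 lower (23.8% and 14.3%, against 9.45% and 5.11% of all genes), with a median of 0.020. With 1 array left out, 1 or 2 were higher and 1 lower. Under median centring 18 rose and 0 fell, beside 61.0% and 15.8% of all genes. Msrb2, a methionine sulfoxide reductase, rose by 0.29 ± 0.048 (limma adjusted p = 0.0096), and Msrb1 had a ratio of 0.25 ± 0.053 (limma adjusted p = 0.022, but 0.058 to 0.090 when array 2, 3 or 4 was dropped). Sesn1, a sestrin, fell by 0.30 ± 0.045 with loess (limma adjusted p = 0.0065) but was at 0.11 with median centring. Its other probes gave -0.25 and -0.29 with loess, and both passed when fitted separately. The other lower calls of this list were Srxn1, described above, and Prdx2, whose probes disagreed. Fitted separately, the probes of Prdx2 gave -0.17, 0.17 and 0.31, and only the last passed, as higher (limma adjusted p = 0.0090). Prdx1 was at 0.19 ± 0.043 (limma adjusted p = 0.028, but 0.054 to 0.12 with 1 array dropped), and Txnip, the inhibitor of thioredoxin, at -0.037 ± 0.051 (limma adjusted p = 0.668).

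Of 5 genes of superoxide and hydrogen peroxide removal, Sod1, the cytosolic superoxide dismutase, rose by 0.35 ± 0.051 (limma adjusted p = 0.0066), with 0.24, 0.44, 0.30 and 0.40 on arrays 1 to 4. The mitochondrial Sod2 was at -0.023 ± 0.059 and catalase, Cat, at -0.042 ± 0.068 (n = 3 arrays), and neither passed (limma adjusted p = 0.825 and 0.725).

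NADPH, which Gsr, Txnrd1 and Nqo1 all use, is supplied by a list in which 5 of 17 tested genes were higher and 2 lower (median 0.073). These are 29.4% and 11.8%, against 9.45% and 5.11% of all genes. With 1 array left out, 2 or 3 were higher and 1 lower. Tkt, transketolase, rose by 0.36 ± 0.047 (limma adjusted p = 0.0045) and Nadk2, the mitochondrial NAD kinase, by 0.34 ± 0.060 (limma adjusted p = 0.012). The mitochondrial folate enzyme Mthfd2 fell by 0.46 ± 0.083 (limma adjusted p = 0.013), and Aldh1l2 of the same pathway was at -0.21 ± 0.048 (limma adjusted p = 0.031, but 0.057 to 0.12 with 1 array dropped) but at 0.23 with median centring. The other probe of Aldh1l2 gave -0.47 with loess and passed when fitted separately (limma adjusted p = 0.024). Mthfd2 and Aldh1l2 are also known ATF4 targets, but the window of Mthfd2 did not hold the ATF4 core and Aldh1l2 had no window to search.

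Of the 8 enzymes that did not pass, Gclm, Gss and Hmox1 changed sign with median centring, and Gclc, Gsr, Gpx1, Nqo1 and Txnrd1 passed without a change of sign. With median centring the median of all genes was at 0.26, and 7 of the 10 enzymes were higher and 2 lower, beside 61.0% and 15.8% of all genes, with Gclc at 0.37, Gclm at 0.24, Gss at 0.28, Gsr at 0.45, Gpx1 at 0.52 and Txnrd1 at 0.46. After subtraction of that median, Gsr, Gpx1, Gpx4 and Txnrd1 were higher (0.19, 0.26, 0.49 and 0.21) and Ggt1 and Nqo1 lower (-0.52 and -0.46), beside 25.9% of all genes higher and 31.6% lower. The dimmest of the 10, Nqo1, thus moved down and bright ones such as Gpx1 moved up. By design, loess fits a trend of the ratio with brightness and median centring does not. Whether such a trend had a part in these shifts was not tested. The signs of Ggt1 and Gpx4 were the same with loess and with median centring.

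**Figure D4:**
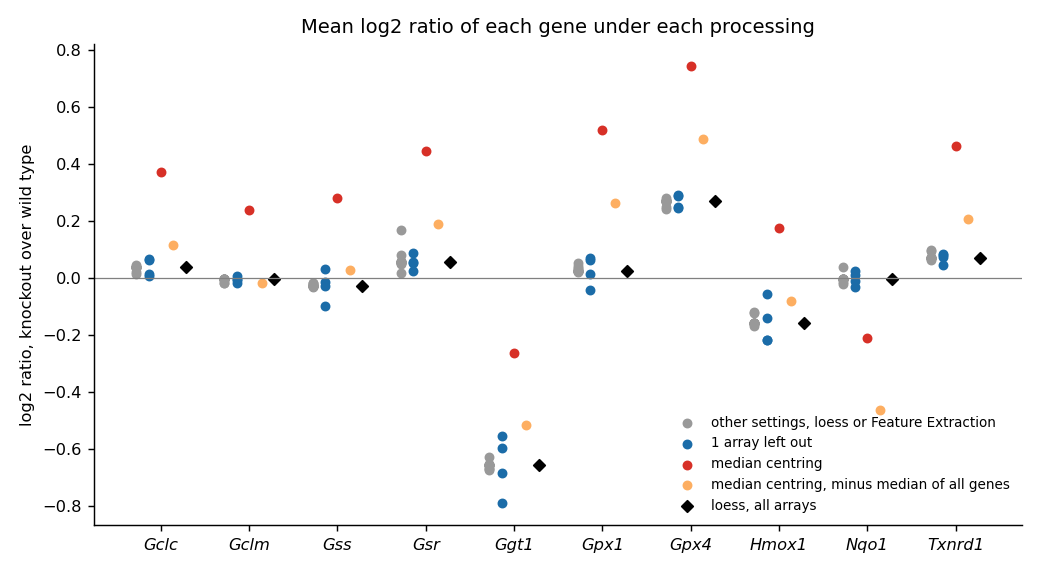
Mean log2 ratio of knockout over wild type for each enzyme under each processing: loess on all arrays (black), 1 array left out (blue), median centring (red), median centring minus the median of all genes (orange) and the other settings (grey). Ggt1 lies below 0 and Gpx4 above 0 under every setting, from -0.79 to -0.26 and from 0.24 to 0.75.

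The tissue label was checked against markers. All 12 acinar, 11 islet and 8 duct genes tested stood well above background on every array, in red and in green, but so were the 10 hepatocyte genes tested, so detection alone does not tell tissues apart. Hepatocyte genes (10 tested, of which 0 passed in limma and 1 was higher at an unadjusted p under 0.05; 8 summed, 3271 to 13349 summed units in knockout and 2875 to 7037 in wild type) had a median ratio of 1.41, 0.89, -0.76 and 0.53 on arrays 1 to 4. Without replicate 3, 5 of 11 hepatocyte genes tested were higher, against 4.07% of all genes in that setting. Red cell genes (10 tested, 1 higher and 0 lower, so 10% higher against 9.45% of all genes) had medians of 0.47, 0.066, -0.43 and 0.38. Their part in any result was not tested. Of the other lists, islet cells held 1 lower gene of 11 (9.09%), endothelial cells 2 lower of 8 (25%) and stroma 1 higher of 10 (10%). Of all genes, 9.45% were higher and 5.11% lower. The 7 kidney and adrenal and 6 lymphoid genes held 0 past the threshold in limma and 1 lower in each at an unadjusted p under 0.05.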

How the data were processed

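Knockout and wild-type pancreas RNA (20 µg each, per the labels) was hybridised pairwise to 4 arrays. Image extraction used Agilent Feature Extraction, and the submitters' processing notes give version 10.5.1.1. The deposited columns used are the intensity of each spot and its background (medians), the processed intensity and a log10 ratio (red to green), per the file headers, and the array design names an older genome build (mm9). No coordinates of its genes are therefore given, and promoter coordinates are those of GRCm38.p6.

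From these, median signals were corrected by normexp (offset 50) and normalised by loess within arrays, with control and non-uniform spots at weight 0 (limma 3.58.1, R 4.3.3). Non-uniform spots (597 to 979 per array) were left out. Per array and channel, 78.2% to 85.1% of spots stood well above background. The number of arrays, 4, limits the precision. Of 41174 probes, 25097 (61.0%) were named by matching accessions to RefSeq transcripts. A probe was tested if well above background on at least 3 arrays in either channel and measured on at least 3, and the brightest probe stood for a gene. Log2 ratios were fitted against 0 with lmFit and eBayes, which keeps the pairing of an array inside each value, and p-values are two-sided and Benjamini-Hochberg adjusted over 15524 genes (threshold 0.05). The fit was tested on simulated data.

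The enzymes and the gene lists were chosen with earlier results of these data known. A gene in several lists counts under each. The rule for other named genes took up to 4 genes with the smallest p-values among those past the threshold in each pathway list, and Nfe2l2, Keap1, Bach1, Slc7a11, Chac1, Cat, Sod1, Sod2 and Txnip at any p. Srxn1, Prdx2, Ugdh, C1qa, Cd163, Me3 and Sephs1 were named after their values were seen. Alternatives are given in the closing section.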

Additional observations from a re-analysis of the deposited data

How the results depend on the processing

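Of 18 alternatives for most of the 10 enzymes (20 for Gsr, with its 3 probes), Ggt1 kept its call in 17 and Gpx4 in 15. Ggt1 and Gpx4 have 1 probe each, so alternatives on the choice of probe could not change their ratios. Their spots were neither dim nor flagged, so alternatives on dim or flagged spots could act only through other spots. Calls kept under those alternatives are no separate support. With the array ignored as a block, so without the pairing of extracts, Ggt1 (-0.66, limma adjusted p = 0.095) and Gpx4 (0.27, adjusted p = 0.265) did not pass, 0 enzymes were higher or lower, and 70 of all genes were higher and 30 lower. The same fit left 1 pathway gene higher (Gstm1) and 1 lower (Chac1), and 2 marker genes higher and 0 lower.

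Median centring made Gclc (0.37), Gsr (0.45), Gpx1 (0.52), Txnrd1 (0.46) and Nqo1 (-0.21) pass, and turned Gclm (0.24), Gss (0.28) and Hmox1 (0.18) above 0, the first 2 past the threshold. It gave 7 enzymes higher and 2 lower, 9471 of all genes higher and 2451 lower, 129 pathway genes and 60 marker genes higher. It also turned Mat2a (0.16), Sesn1 (0.11), Maf (0.012), Aldh1l2 (0.23), Ncoa4 (0.19), Bach1 (0.18), Cat (0.37), Sod2 (0.42) and Txnip (0.40) above 0. Minus the median of all genes, an alternative added after the data were seen, 4 enzymes were higher and 2 lower, with Gss at 0.027, Gsr at 0.19, Gpx1 at 0.26, Nqo1 at -0.46 and Txnrd1 at 0.21. Of all genes 4024 were then higher and 4912 lower, of pathway genes 69 and 36, of marker genes 36 and 22, and Cat (0.11), Sod2 (0.16) and Txnip (0.15) were above 0. Without background correction Nqo1 was at 0.039.

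With 1 array left out, 637 to 972 genes were higher and 347 to 616 lower, 0 or 1 enzyme was higher and 1 lower, 17 to 22 pathway genes were higher and 10 to 14 lower, and 5 to 13 marker genes were higher and 1 to 5 lower. Values ranged from -0.017 to 0.0059 for Gclm, -0.099 to 0.032 for Gss, -0.043 to 0.071 for Gpx1, -0.033 to 0.023 for Nqo1 and 0.25 to 0.29 for Gpx4. Cat ranged from -0.088 to 0.039, Sod2 from -0.082 to 0.025 and Txnip from -0.064 to 0.0025, each above 0 only without replicate 1. The cause of these changes was not tested, except that 3 arrays carry less information than 4. Leaving out population outliers too, added after the data were seen, changed no call of the 10 enzymes. All 4 arrays lay on 1 slide read in 1 scan, so neither could be examined as a batch.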
